A study of Mus musculus with 12 samples.

Results

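The genes described here are Tns1, which encodes tensin-1, and 9 genes of the contractile and filament system of smooth muscle: Acta2, Actg2, Myh11, Myl9, Tagln, Cnn1, Des, Synm and Flna. They are 10 of the 19938 genes measured. The set was chosen by the Tns1 values, which were far higher in KO arrays, so the difference of Tns1 between genotypes is a description and was not tested. The other 9 were named by function, and the question was whether they follow Tns1. Each gene was read from the probe set of highest mean over the 12 arrays, among the probe sets that the platform annotation ties to 1 symbol.

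The arrays came from intestine of male mice on the C57BL6/J APCmin/+ background, collected at 25 weeks of age or earlier where weight loss required it. All mice therefore carried the Apc mutation that gives intestinal adenomas. Epithelium of tumors and epithelium beside tumors was cut from stained sections with a laser. The groups were FSPCre-PPARB -/- tumor epithelium (KO tumor, 3 arrays), PPARB flox/flox tumor epithelium (floxed tumor, 3 arrays), FSPCre-PPARB -/- adjacent epithelium (KO adjacent, 2 arrays) and PPARB flox/flox adjacent epithelium (floxed adjacent, 2 arrays). FSP is fibroblast-specific protein, whose promoter drives Cre in fibroblasts, so the dissected epithelium is not the main target of the deletion. A further 2 adjacent arrays had contradicting genotype labels and entered no group. The title of conflict array 1 says KO and its genotype characteristic says floxed, and for conflict array 2 these are the other way round. Nothing ties arrays to animals, so p-values may measure technical spread in part.

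Smooth muscle contracts when myosin heads (Myh11 with its light chain Myl9) pull on thin filaments of alpha and gamma actin (Acta2, Actg2). Calponin and transgelin (Cnn1, Tagln) bind those filaments, desmin and synemin (Des, Synm) form intermediate filaments that link them to the cell edge, and filamin A (Flna) crosslinks actin in most cell types. Tensins tie integrins in the membrane to actin. In the gut this program belongs to the muscle layers, the muscularis mucosae, vessel walls and subepithelial myofibroblasts, and not to epithelium.

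The arrays differed in signal in a way that ran with genotype. Floxed tumor arrays 1 and 2 and both floxed adjacent arrays had correlations of only 0.496 to 0.640 with every other array (the weak-signal arrays), while correlations among the 5 KO arrays were 0.947 to 0.973. Over 12 epithelial markers, the median level was 6.44 to 6.93 (log2) in KO tumor, 5.25 to 7.76 in floxed tumor, 6.90 and 6.99 in KO adjacent and 5.09 to 5.52 in floxed adjacent arrays. Ppard, the gene with the floxed alleles, averaged 6.21 ± 0.25 (log2, SD, n = 3) in KO tumor and 5.07 ± 0.66 (SD, n = 3) in floxed tumor arrays. It averaged 5.63 ± 0.17 (SD, n = 2) in KO adjacent and 4.85 ± 0.33 (SD, n = 2) in floxed adjacent arrays, and did not pass in tumor (limma adjusted p = 0.0991) or adjacent epithelium (adjusted p = 0.230). The sources used here do not say whether its probes lie in the removed part, so it does not check the labels.

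Tns1 was represented by 6 probe sets, and they did not move together. The one of highest mean, 10355528, read 11.52, 11.49 and 10.93 (log2) in KO tumor arrays 1 to 3, against 8.11, 7.51 and 6.74 in floxed tumor arrays 1 to 3. Beside tumors, it read 11.16 and 10.81 in KO arrays 1 and 2, against 8.43 and 7.67 in floxed arrays 1 and 2. Every KO array lay above every floxed array in both tissues, which is the pattern the gene was chosen for. KO minus floxed was 3.86 in tumor and 2.93 in adjacent epithelium (log2).

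Ordered by mean, this probe set stood at 11.31 ± 0.33 (SD, n = 3) in KO tumor, 10.98 ± 0.25 (SD, n = 2) in KO adjacent, 8.05 ± 0.54 (SD, n = 2) in floxed adjacent and 7.45 ± 0.69 (SD, n = 3) in floxed tumor arrays. Neighbouring tissues of one genotype overlapped. Tumor minus adjacent, which did not enter the choice of the gene, was 0.33 ± 0.41 (log2, SE) in KO (limma adjusted p = 1.00) and -0.60 ± 0.41 (SE) in floxed arrays (adjusted p = 0.571). Conflict array 1 read 6.91 and conflict array 2 read 11.54, the highest value of the 12 arrays. With both read by title, KO minus floxed in adjacent epithelium was 0.41, and by genotype characteristic it was 3.50 (log2). Without the weak-signal arrays, KO tumor minus floxed tumor array 3 was 4.575.

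**Figure D1:**
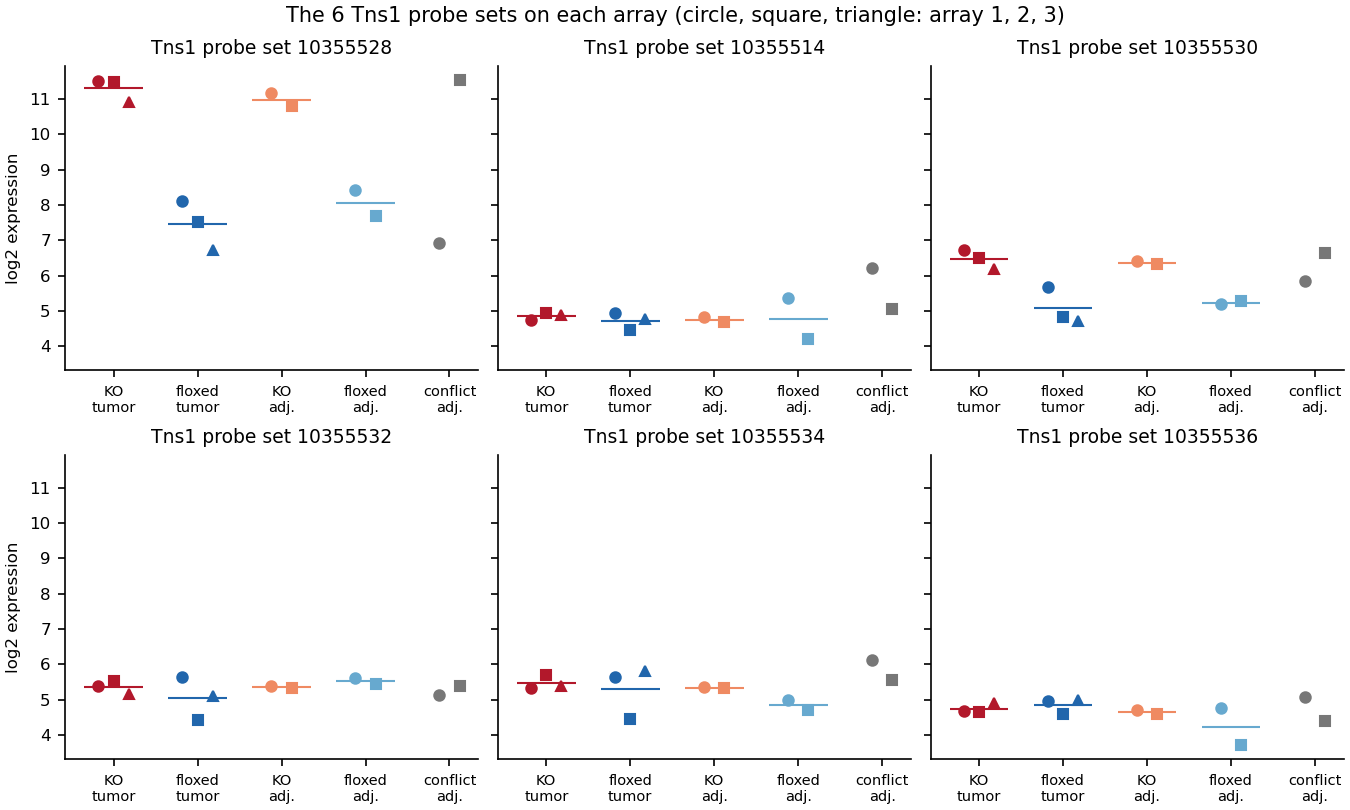
Log2 expression (y axis) of each of the 6 Tns1 probe sets on the 12 arrays, grouped along the x axis, with 1 point per array and a line at the mean of each labelled group. KO arrays lie at 10.81 to 11.52 for probe set 10355528 and floxed arrays at 6.74 to 8.43, while 4 of the other 5 probe sets show overlapping tumor values.

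A second Tns1 probe set, 10355530, was also higher in KO, by less. It read 6.73, 6.51 and 6.18 in KO tumor arrays, against 5.69, 4.84 and 4.71 in floxed tumor arrays, a difference of 1.39 (log2), and 6.40 and 6.32 in KO adjacent against 5.18 and 5.29 in floxed adjacent arrays, a difference of 1.13. The genotypes did not overlap in either tissue, with KO higher, as in 13.2% of all genes in tumor and 32.1% in adjacent epithelium.

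The other 4 Tns1 probe sets differed between genotypes in tumor epithelium by -0.10 to 0.30 (log2), and in all 4 the KO and floxed tumor arrays overlapped. In adjacent epithelium their differences ran between -0.18 and 0.49. Probe set 10355514, for example, read 4.75, 4.93 and 4.87 in KO tumor arrays, against 4.94, 4.45 and 4.76 in floxed tumor arrays. The spread between the highest and lowest difference among the Tns1 probe sets was 3.96 in tumor epithelium. The median spread was 0.49 among the 999 genes with more than 1 probe set and 1.73 among the 57 with 6 or more. A larger spread than that of Tns1 was found for 8 genes. The Tns1 spread holds the difference of 10355528, by which the gene was chosen. Its high rank therefore follows in part from that choice. Averaged over its 6 probe sets, Tns1 differed by 0.96 in tumor and 0.79 in adjacent epithelium. The annotation lists 3 accessions for 10355528, and 1 transcript accession that is listed for each of the other 5 probe sets is not listed for it. The sources used here do not say where its probes lie in the gene.

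At the levels measured, the contractile genes did not follow the Tns1 probe set. Group means of Actg2, Cnn1, Des, Synm and Myl9 were 3.84 to 4.52 (log2). Those of Acta2, Tagln, Myh11 and Flna were 3.88 to 5.47. Array medians over all probe sets were 4.25 to 4.44, so most of these genes were read near the middle of their arrays. Whether their probe sets could show a change at such levels was not tested, which limits what the lack of a difference says. In tumor epithelium 0 of the 9 passed the test (limma adjusted p under 0.05), against 215 of all 19938 genes, or 1.08% (0.682% higher and 0.396% lower in KO). At an unadjusted p under 0.05 there was 1, Tagln, against 23% of all genes. KO minus floxed had a median of -0.03 over the 9 (log2), 4 were above 0, and the differences ran from -0.44 to 1.05. A p that misses the threshold does not show equality, so intervals are given below. In these bulk samples, fewer cells of a type and less RNA per cell cannot be told apart.

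Of the thin-filament actins, Acta2 read 5.24, 5.09 and 4.86 (log2) in KO tumor arrays, against 5.01, 4.45 and 4.85 in floxed tumor arrays. The genotypes overlapped, and KO minus floxed was 0.29 ± 0.24 (SE) with a 95% interval of -0.23 to 0.82 and a limma adjusted p of 0.482. Actg2, the actin of gut muscle, read 4.51, 4.24 and 4.10 in KO tumor arrays, against 3.73, 4.95 and 4.24 in floxed tumor arrays. Floxed tumor arrays 1 and 2, both of weak signal, held its lowest and highest values among the tumor arrays, and the difference was -0.03 with an interval of -0.70 to 0.65.

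Of the motor proteins, Myh11, the smooth muscle myosin heavy chain, read 5.07, 5.27 and 5.04 in KO tumor arrays, against 5.18, 5.19 and 5.21 in floxed tumor arrays. Its difference was -0.07 ± 0.20 (SE) with an interval of -0.52 to 0.38. Myl9, the regulatory light chain, read 4.06, 4.05 and 3.83 in KO tumor arrays, against 4.95, 4.15 and 4.17 in floxed tumor arrays. All 3 KO arrays lay below the floxed ones, as in 13.9% of all genes, and the difference of -0.44 ± 0.28 (SE) had a limma adjusted p of 0.356.

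Of the 9 differences in tumor epithelium, that of transgelin was the largest. Tagln read 5.03, 5.07 and 4.79 in KO tumor arrays, against 3.78, 3.55 and 4.40 in floxed tumor arrays. The genotypes did not overlap, with KO higher, as in 13.2% of all genes, and the difference of 1.05 ± 0.42 (SE, interval 0.12 to 1.99) had a limma adjusted p of 0.177. It passed without floxed tumor array 3 (1.30, limma adjusted p = 0.0499) and, when arrays were weighted by quality, at 1.19 (adjusted p = 0.0435). Those fits called 5793 and 2907 of all genes, against 215 in the fit reported. Without the weak-signal arrays, which leaves 1 floxed tumor array, the difference of Tagln was 0.56. Cnn1 read 4.14, 4.25 and 4.31 in KO tumor arrays, against 4.11, 5.05 and 3.68 in floxed tumor arrays, with a difference of -0.05 and an interval of -0.88 to 0.78.

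The intermediate filament genes and filamin A overlapped between genotypes in tumor epithelium. Des read 4.46, 4.47 and 4.17 in KO tumor arrays, against 4.49, 4.28 and 4.80 in floxed tumor arrays, a difference of -0.15 (interval -0.90 to 0.60). Synm read 4.58, 4.08 and 4.35 in KO tumor arrays, against 4.24, 4.09 and 4.15 in floxed tumor arrays, a difference of 0.18 (interval -0.35 to 0.71). Its whole range over the 12 arrays was 0.66, smaller than that of all but 2.77% of genes. Flna read 5.14, 4.96 and 4.76 in KO tumor arrays, against 4.95, 4.31 and 4.53 in floxed tumor arrays, a difference of 0.36 (interval -0.19 to 0.90).

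**Figure D2:**
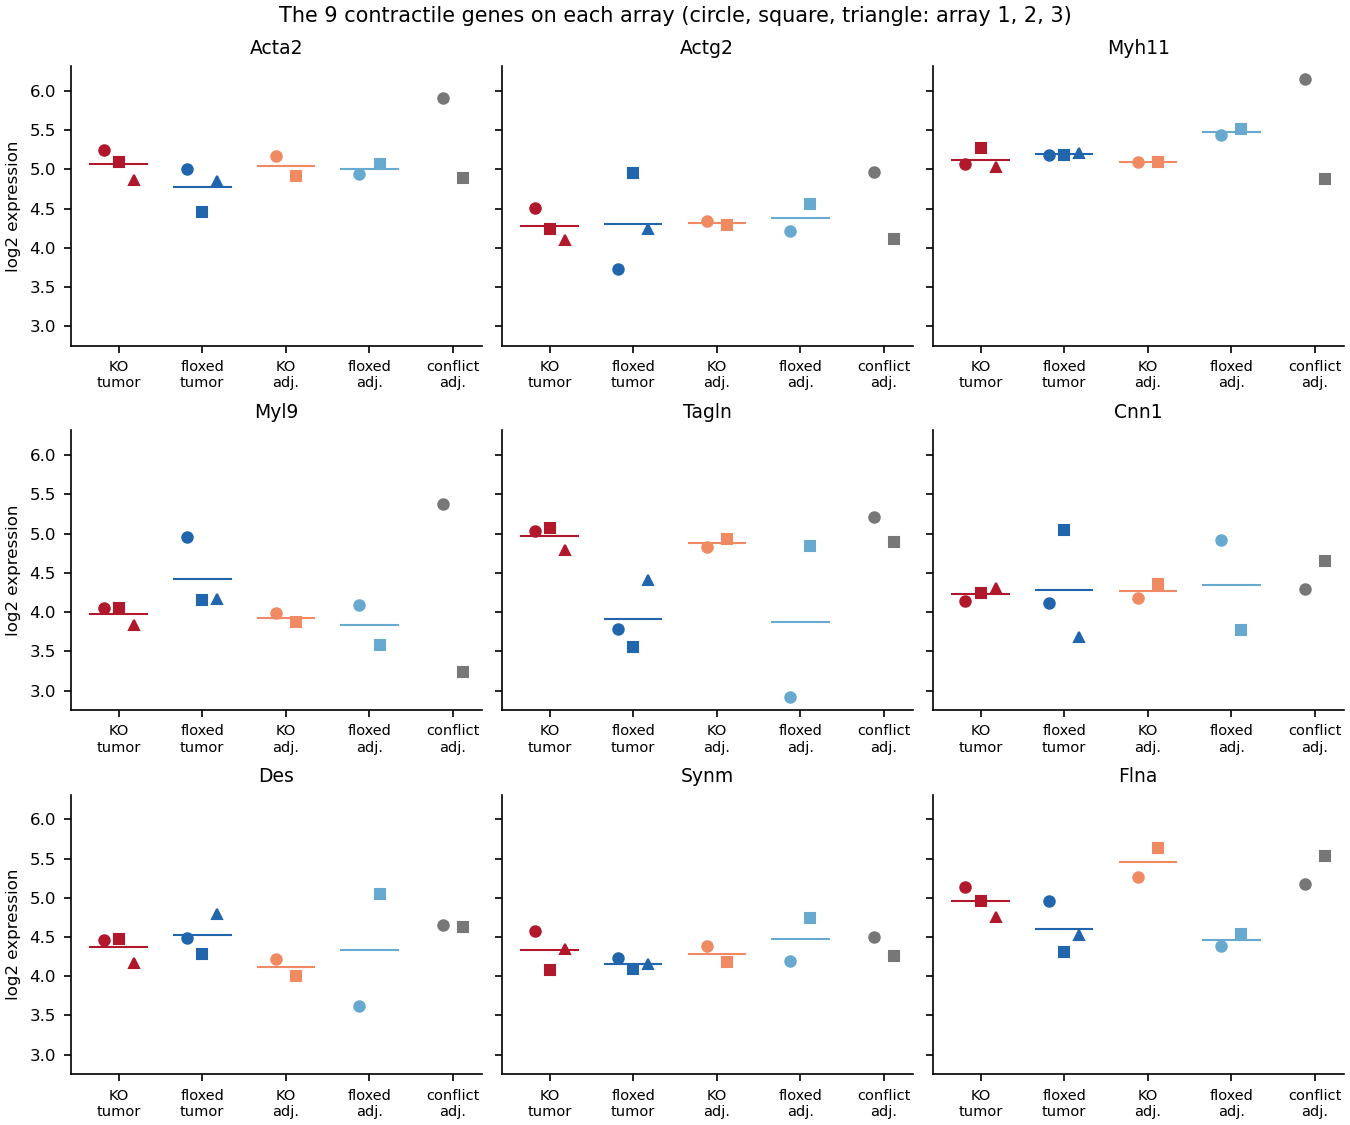
Log2 expression (y axis) of the 9 contractile genes on each array by group (x axis), with 1 point per array and a line at the mean of each labelled group. All values lie between 2.92 and 6.15, and conflict array 1 holds the highest value in 5 of the 9 panels.

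In adjacent epithelium 0 of the 9 passed, against 1209 of all genes, or 6.06% (2.91% higher and 3.15% lower in KO), and 1 had an unadjusted p under 0.05, against 28.2% of all genes. The median difference was -0.06 (log2), with 4 of 9 above 0. Both floxed adjacent arrays were of weak signal, so no value without such arrays exists for this comparison.

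The 1 gene was filamin A. Flna read 5.27 and 5.64 in KO adjacent arrays, against 4.38 and 4.54 in floxed adjacent arrays. The difference was 0.99 ± 0.31 (SE, interval 0.32 to 1.67) with a limma adjusted p of 0.0707. It passed in 5 of the alternative fits at the same threshold: without floxed tumor array 1, 2 or 3 in turn (adjusted p = 0.0469, 0.0385 and 0.0300), when arrays were weighted by quality (adjusted p = 0.0485) and with the 4 arrays compared alone (adjusted p = 0.0498). Those fits called 1804, 3041, 4903, 4034 and 3435 of all genes in that order, against 1209 in the fit reported. With the conflicting labels read by title the difference of Flna was 0.54 (limma adjusted p = 0.395). That fit called 1 of all genes.

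Tagln differed by a similar amount with a far wider spread. It read 4.83 and 4.93 in KO adjacent arrays, against 2.92 and 4.84 in floxed adjacent arrays, and the difference of 1.00 ± 0.52 (SE) had a limma adjusted p of 0.230. Floxed adjacent array 1 lay far below the KO arrays, and without it the difference was 0.04 (adjusted p = 0.961). Without floxed adjacent array 2 it was 1.96 (adjusted p = 0.0526). Myh11 read 5.09 and 5.09 in KO adjacent arrays, against 5.44 and 5.51 in floxed adjacent arrays, a difference of -0.38 ± 0.25 (SE, adjusted p = 0.332). Arrays of the 2 genotypes failed to overlap in 67.1% of all genes here (32.1% with KO higher, 35% with KO lower), so the lack of overlap for Flna and Myh11 is near the background. The other 6 contractile genes overlapped and differed by -0.22 to 0.09.

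**Figure D3:**
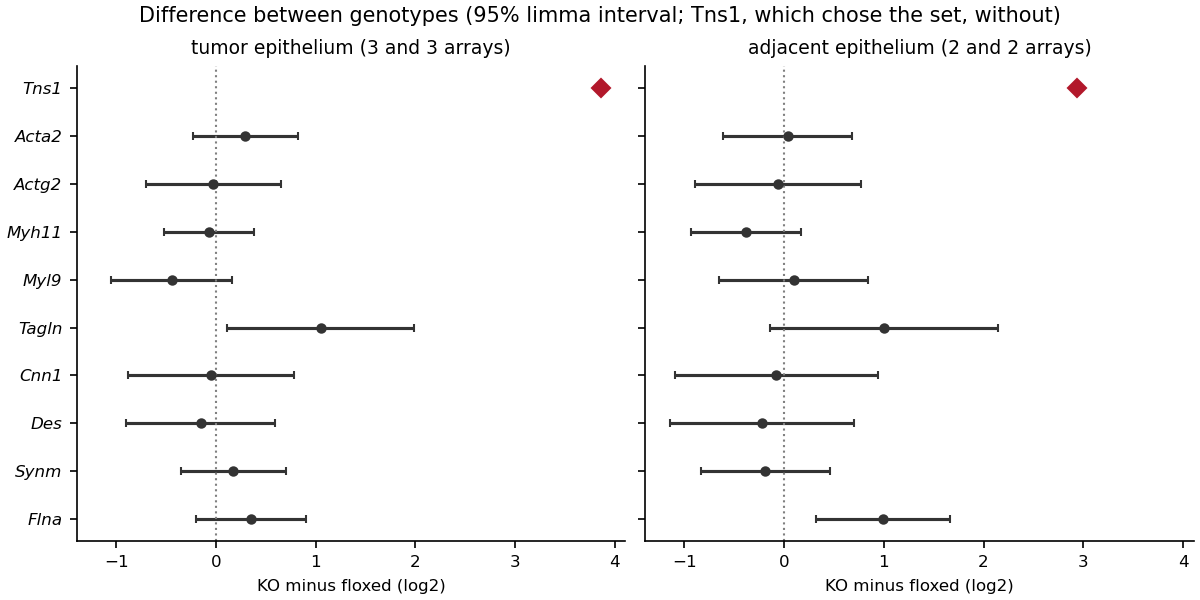
KO minus floxed (x axis, log2) for each gene (rows) in tumor (left) and adjacent epithelium (right), with 95% limma intervals for the 9 contractile genes and the bare value for Tns1. Tns1 stands at 3.86 and 2.93, and the intervals of Tagln in tumor and Flna in adjacent epithelium leave out 0 although neither passed after adjustment.

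Between tissues none of these genes passed. In KO arrays 0 of the 9 contractile genes passed for tumor against adjacent epithelium, against 4 of all genes, or 0.0201%, and 0 had an unadjusted p under 0.05, against 2.47% of all genes. Differences ran from -0.50 for Flna (SE 0.28, limma adjusted p = 1.00) to 0.25 for Des. In floxed arrays 0 of 9 passed, against 1 of all genes, or 0.00502%, and 0 had an unadjusted p under 0.05, against 12.5%. The largest difference there was that of Myl9 at 0.59 ± 0.31 (SE), with an adjusted p of 0.465. The test of whether the genotype difference itself differed between tissues called 0 of the 9 contractile genes and 0% of all genes. In it 0 of the 9 had an unadjusted p under 0.05, against 6.42% of all genes. For Tns1 this value, 0.93 (log2), is the difference between the genotype values by which it was chosen. It is therefore a description and was not tested.

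The highest contractile values came from an array that belongs to no group. Conflict array 1 held the highest value of the 12 arrays for 5 of the 9 genes, where it held the highest value for 8.60% of all genes. It read 5.91 for Acta2, 6.15 for Myh11 and 5.38 for Myl9, and the next highest arrays read 5.24, 5.51 and 4.95. For Actg2 and Tagln it read 4.97 and 5.21, close to the next highest at 4.95 and 5.07. Among 27 further contractile genes it was highest for 5, among them Tpm1, a tropomyosin that lies along thin filaments, at 8.00 against 6.85 on the next highest array. It was highest for 4 of 12 epithelial, 0 of 8 fibroblast, 0 of 6 pericyte, 0 of 6 endothelial and 1 of 5 enteric glia and interstitial cell markers.

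On that array the Tns1 probe sets separated. Probe set 10355514 read 6.20, its highest value, where the next highest array read 5.35, while probe set 10355528 read 6.91, its second lowest. Probe sets 10355534 and 10355536 were also highest on conflict array 1, at 6.12 and 5.08. The mean of the 9 contractile genes was 5.14 on conflict array 1 and 4.30 to 4.69 on the other 11 arrays. Over the 8 arrays that are not of weak signal, 10355514 had the highest correlation with that mean among the 6 probe sets, and was taken for it. Its r was 0.900, but -0.06 over the 7 left without conflict array 1, so the relation rests on that array. Over those 7 arrays 10355532 and 10355530 were highest, at 0.826 and 0.77. For 10355528 the values were -0.39 with conflict array 1 and 0.690 without it. Over all 12 arrays they were 0.561 for 10355514 and -0.07 for 10355528, and over the 11 without conflict array 1 they were -0.46 and 0.554. These correlations are descriptions over arrays that share scaling and overall signal.

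**Figure D4:**
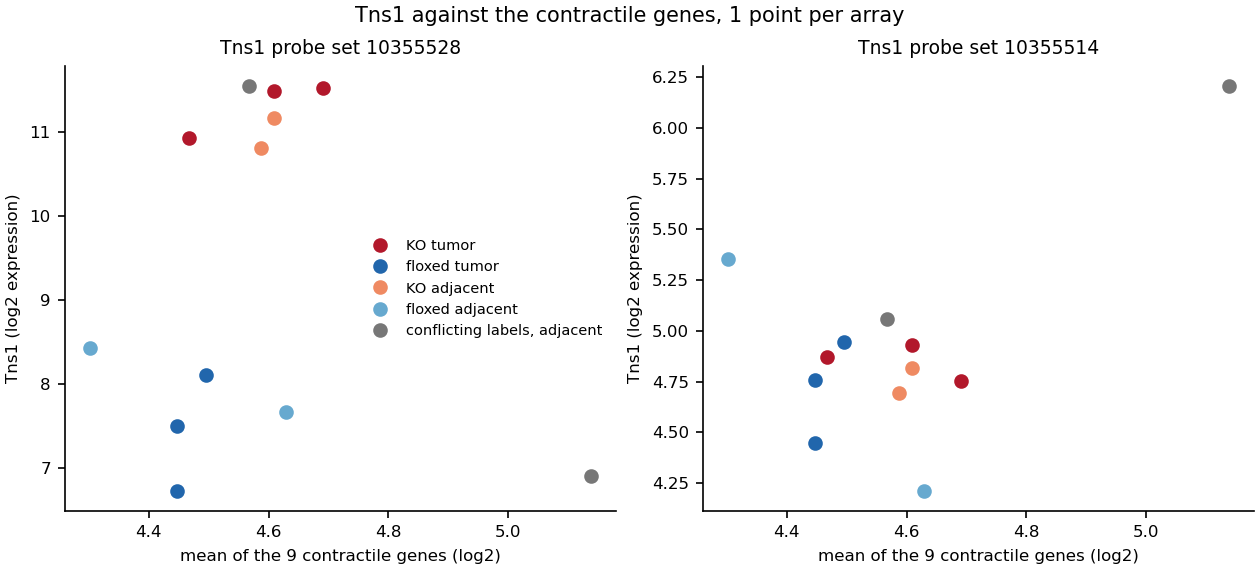
Log2 level of 2 Tns1 probe sets (y axes) against the mean of the 9 contractile genes (x axis, log2), with 1 point per array coloured by group. Conflict array 1 lies alone at a contractile mean of 5.14, low for 10355528 at 6.91 and high for 10355514 at 6.20.

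Among themselves the contractile genes varied together in part. Over the 8 arrays not of weak signal, Acta2 correlated with Actg2 at 0.962, Myh11 with Myl9 at 0.961 and Acta2 with Myh11 at 0.891, and the median over all 36 pairs was 0.332. With all 12 arrays these were 0.267, 0.676 and 0.709, and the median was 0.190. Conflict array 1 is the high point for each of these genes.

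Smooth muscle genes are classic targets of serum response factor (SRF), which with myocardin binds the CArG box, a run of A and T bases between a pair of C and a pair of G bases. The 250 bases before the start site were searched for the CArG box and for forms with 1 deviation in the 6 inner bases. The pattern reads the same on both strands. RefSeq promoter sequences (GRCm38.p6) covered 7 of the 10 genes: Tns1, Des, Myl9, Synm, Cnn1, Acta2 and Flna. An exact box occurred in 1 of these 7, Myl9, and in 1.47% of all 32851 windows of that length. Allowing 1 deviation, 3 of 7 held a match, against 8.59% of all windows. The 3 stretches of 80 bases are shown because they hold a CArG box or a form of it with 1 deviation, with both kinds in capitals, 5′ to 3′ on the gene's strand. The other 4, Tns1 among them, held no match in this window.
Acta2, chr19:34255388-34255467, minus strand: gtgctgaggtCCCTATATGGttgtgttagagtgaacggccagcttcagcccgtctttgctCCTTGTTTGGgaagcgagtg
Myl9, chr2:156775299-156775378, plus strand: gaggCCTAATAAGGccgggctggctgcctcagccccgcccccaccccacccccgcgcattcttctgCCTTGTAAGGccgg
Synm, chr7:67759913-67759992, minus strand: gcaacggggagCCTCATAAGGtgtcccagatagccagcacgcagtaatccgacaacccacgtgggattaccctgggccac
Of the matches shown, only the first in Myl9 is an exact box, and the others have 1 deviation. Acta2 and Myl9 each held 2 matches, and both were among the genes highest on conflict array 1. Synm held 1 match and was the least variable of the set. A match is a description of letters and not a binding site.

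The regulators of this program did not pass either. Of 11 genes listed, among them Srf, Myocd and the myocardin-related Mrtfa and Mrtfb, 0 passed in tumor epithelium, with 8 above 0 and a median difference of 0.10 (log2), where the median of all genes was -0.01. In adjacent epithelium 0 passed, with a median of 0.34, against -0.04 over all genes. An unadjusted p under 0.05 was found for 0 of them in tumor and 2 in adjacent epithelium, against 23% and 28.2% of all genes. Srf averaged 5.22 in KO tumor and 4.87 in floxed tumor arrays (difference 0.35, limma adjusted p = 0.586), and 5.37 in KO adjacent and 4.26 in floxed adjacent arrays (1.11, adjusted p = 0.130, and 0.0453 without floxed tumor array 3). In tumor epithelium Srf differed by -0.28 without the weak-signal arrays (adjusted p = 0.553). Foxf2, a transcription factor of gut mesenchyme, differed by -0.31 in tumor (adjusted p = 0.572) and -1.16 in adjacent epithelium (adjusted p = 0.0847). It passed there without floxed tumor array 2 or 3 (limma adjusted p = 0.0466 and 0.0421), where 3041 and 4903 of all genes passed. With arrays weighted by quality it passed as well (adjusted p = 0.0237), as did 4034 of all genes. Myocd, named after its value was seen, differed by 0.02 in tumor and -0.76 in adjacent epithelium.

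Of 27 contractile genes beyond the 9, 0 passed in tumor and 0 in adjacent epithelium. At an unadjusted p under 0.05 there were 3 and 5, against 23% and 28.2% of all genes. Their median difference was 0.18 in tumor, with 17 above 0, and -0.05 in adjacent epithelium, with 13 above 0. Mylk, the kinase that switches on smooth muscle myosin, averaged 5.68 in KO tumor and 4.58 in floxed tumor arrays (1.10 ± 0.28, SE, limma adjusted p = 0.0800). Csrp1, a cytoskeletal LIM protein, differed by 0.92 in tumor (adjusted p = 0.105) and 1.24 in adjacent epithelium (adjusted p = 0.0548). Cnn2, a calponin of non-muscle cells, differed by 0.77 in tumor (adjusted p = 0.124) and -0.61 in adjacent epithelium (adjusted p = 0.228). Synpo2, a muscle actin-bundling protein, differed by 0.53 in tumor epithelium (adjusted p = 0.288). Without floxed tumor array 3, only weak-signal floxed tumor arrays are left, and 5793 of all 19938 genes passed in tumor epithelium. Mylk, Csrp1, Cnn2 and Synpo2 were among them, at 1.38, 0.96, 0.79 and 0.78 (limma adjusted p = 0.0027, 0.0339, 0.0478 and 0.0351). Without the weak-signal arrays Mylk differed by 0.54, Csrp1 by 0.83, Cnn2 by 0.73 and Synpo2 by 0.02. That fit holds 1 floxed tumor array, and the list's median in it was -0.04. In adjacent epithelium Csrp1 passed when blocked by replicate number, centred on array medians or weighted by quality (limma adjusted p = 0.0465, 0.0473 and 0.0191). It also passed there without floxed tumor array 1, 2 or 3 (adjusted p = 0.0411, 0.0324 and 0.0209). These fits called 1186 to 4903 of all genes there. With arrays weighted by quality, Mylk and Csrp1 passed in tumor epithelium (adjusted p = 0.0188 and 0.0338), as did 2907 of all genes.

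The actin list beyond smooth muscle was read beside them. Actb, the cytoplasmic beta actin, averaged 10.01 in KO tumor and 8.84 in floxed tumor arrays (1.17 ± 0.64, SE, limma adjusted p = 0.297), and 9.92 in KO adjacent and 7.74 in floxed adjacent arrays (2.18 ± 0.78, SE, adjusted p = 0.103). In tumor epithelium its difference was -0.60 without the weak-signal arrays (adjusted p = 0.275) and 2.05 without floxed tumor array 3 (adjusted p = 0.0038), so its sign depended on which floxed arrays were kept. It passed in adjacent epithelium without floxed tumor array 2 or 3 (limma adjusted p = 0.0399 and 0.0061) and when blocked by replicate number (adjusted p = 0.0347). It also passed there with arrays weighted by quality (adjusted p = 0.0201) and with the arrays compared alone (adjusted p = 0.0149). In that order, these fits called 3041, 4903, 2158, 4034 and 3435 of all genes there. Of the 4 measured genes of this list, Actb, Acta1, Actc1 and Flnc, 0 passed in either tissue. An unadjusted p under 0.05 was found for 0 in tumor and 1 in adjacent epithelium, against 23% and 28.2% of all genes.

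Genes of integrin adhesion lay mostly above 0. Of 34 measured, 1 rose in tumor epithelium, where 0.682% of all genes were called higher. There 29 of the 34 were above 0, against 49.6% of all genes. The median difference was 0.41 (log2), against -0.01 over all genes. Beside tumors 25 of the 34 were above 0, against 47.6% of all genes, with a median of 0.82, against -0.04. An unadjusted p under 0.05 was found for 6 in tumor and 14 in adjacent epithelium, against 23% and 28.2% of all genes. The gene called higher in tumor epithelium was Bcar1, an adhesion scaffold. It averaged 6.78 in KO tumor and 5.29 in floxed tumor arrays (1.50 ± 0.27, SE, limma adjusted p = 0.0438). With each of the 10 arrays left out in turn it passed in 1 fit, without floxed tumor array 3. The other fits of that kind called 10 to 133 of all genes in tumor epithelium, against 215 in the fit reported. The difference of Bcar1 ran from 1.20 to 1.66 over all alternatives, with adjusted p from 0.0031 to 0.216. Zyx, Vasp and Pxn, proteins of actin assembly at focal adhesions, differed by 1.49, 1.69 and 1.34 (adjusted p = 0.103, 0.105 and 0.119). The 3 differed by 0.30, 0.45 and 0.15 without the weak-signal arrays (adjusted p = 0.344, 0.106 and 0.603). Without floxed tumor array 3, only the weak-signal floxed tumor arrays are left. The 3 genes then differed by 2.08, 2.31 and 1.94 and passed, as did 5793 of all genes. Zyx and Vasp also passed in the fit blocked by replicate number (adjusted p = 0.0424 and 0.0440). With arrays weighted by quality Zyx, Vasp and Pxn passed (adjusted p = 0.0077, 0.0094 and 0.0097), as did 2907 of all genes. In adjacent epithelium 4 of 34 rose, or 11.8%, against 2.91% of all genes called higher: Tns3, Parva, Fermt1 and Actn1, named after their values were seen, by 1.69, 1.11, 1.90 and 1.55 (adjusted p = 0.0418, 0.0384, 0.0367 and 0.0497). Each of the 4 passed in 3 of the 10 fits that left out 1 array. The fits of that kind in which they did not pass called 1 to 427 of all genes there. Parva did not pass when blocked by replicate number (adjusted p = 0.0549). With the conflicting labels read by genotype characteristic none of the 4 passed, and Tns3, Parva, Fermt1 and Actn1 differed by 0.90, 0.06, 0.89 and 0.80. Read by title none passed either, at 1.35, 1.42, 1.65 and 1.27. The fit by genotype characteristic called 48 of all genes in adjacent epithelium and that by title 1, against 1209 in the fit reported. Tns3 is another tensin, Parva and Fermt1 (kindlin-1, of epithelial cells) bind the integrin complex, and Actn1 crosslinks actin.

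The medians of the epithelial markers were above 0 as well. Their median difference was 0.47 in tumor epithelium, with 10 of 12 above 0, and 1.53 in adjacent epithelium, with 12 of 12 above 0. In neither tissue did any pass (0 and 0), while 2 and 8 had an unadjusted p under 0.05, against 23% and 28.2% of all genes. Blocked by replicate number, Vil1, an actin bundler of the brush border, passed in adjacent epithelium (2.21, adjusted p = 0.0357). Vil1 also passed there with arrays weighted by quality, with the arrays compared alone and without floxed tumor array 3 (adjusted p = 0.0115, 0.0336 and 0.0072). Without the weak-signal arrays the adhesion list had a median of -0.04 in tumor epithelium, and the epithelial markers one of -1.13. Bcar1 was at 1.28 there. That fit holds 1 floxed tumor array, whose spread was taken from the KO arrays, and it was run on the lists after their values were seen. The part of epithelial signal in the adhesion list's values was not tested.

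Tns2 and Tns4 did not pass. Tns2 differed by -0.22 in tumor and -0.40 in adjacent epithelium (limma adjusted p = 0.580 and 0.367), and Tns4, a tensin of epithelial tumors, by 0.14 and 1.02 (adjusted p = 0.800 and 0.0987). Tns3 differed by 0.60 in tumor epithelium (adjusted p = 0.306).

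Markers of the other cells that carry smooth muscle genes were read beside them. Of 6 pericyte markers 0 passed in either tissue, with median differences of 0.10 in tumor and -0.21 in adjacent epithelium. An unadjusted p under 0.05 was found for 1 and 0, against 23% and 28.2% of all genes. In tumor epithelium Abcc9 and Rgs5 differed by -0.46 and -0.34 (limma adjusted p = 0.204 and 0.441), and Kcnj8 and Cspg4 by 0.31 and 0.32 (adjusted p = 0.478 and 0.524). In adjacent epithelium all of these but Abcc9 had the other sign, with Rgs5 at 0.27, Kcnj8 at -0.43, Cspg4 at -0.22 and Abcc9 at -0.20. Of 6 endothelial markers 0 passed (2 and 2 unadjusted, against the same 23% and 28.2% of all genes), with medians of 0.28 and 0.18. Of 5 markers of enteric glia and interstitial cells of Cajal 0 passed (0 and 1 unadjusted, against those shares), with medians of -0.03 and 0.06. Of 8 fibroblast markers 1 rose in tumor epithelium, Col3a1, a fibrillar collagen, by 1.21 (adjusted p = 0.0478), and 1 rose in adjacent epithelium, Dcn, a matrix proteoglycan, by 1.53 (adjusted p = 0.0315), where 0.682% and 2.91% of all genes were called higher. The list's medians were 0.55 and 0.62. An unadjusted p under 0.05 was found for 4 of the 8 in each tissue, against 23% and 28.2% of all genes. Lum, another matrix proteoglycan, named after its value was seen, differed by -0.87 and -1.13. Without the weak-signal arrays, which leaves 1 floxed tumor array, the fibroblast list's median in tumor epithelium was 0.81, against 0.02 over all genes. Col3a1 differed by 0.99 there. With 1 array left out at a time, Col3a1 passed in 3 of 10 fits and Dcn in 4 of 10. The fits in which Col3a1 did not pass called 10 to 77 of all genes in tumor epithelium. Those in which Dcn did not pass called 1 to 254 in adjacent epithelium. With the conflicting labels read by genotype characteristic Dcn differed by 0.80 and did not pass, where 48 of all genes passed. Dcn was named after its value was seen, and the part of fibroblast RNA in the other results was not tested. Summed over the 8, fibroblast markers stood at 37.54 to 39.15 (log2) in KO tumor, 34.13 to 36.62 in floxed tumor, 40.37 and 41.14 in KO adjacent and 37.30 to 37.96 in floxed adjacent arrays. The 9 contractile genes summed to 40.21 to 42.22 in KO tumor, 40.02 to 40.45 in floxed tumor, 41.28 and 41.49 in KO adjacent and 38.73 to 41.67 in floxed adjacent arrays.

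**Figure D5:**
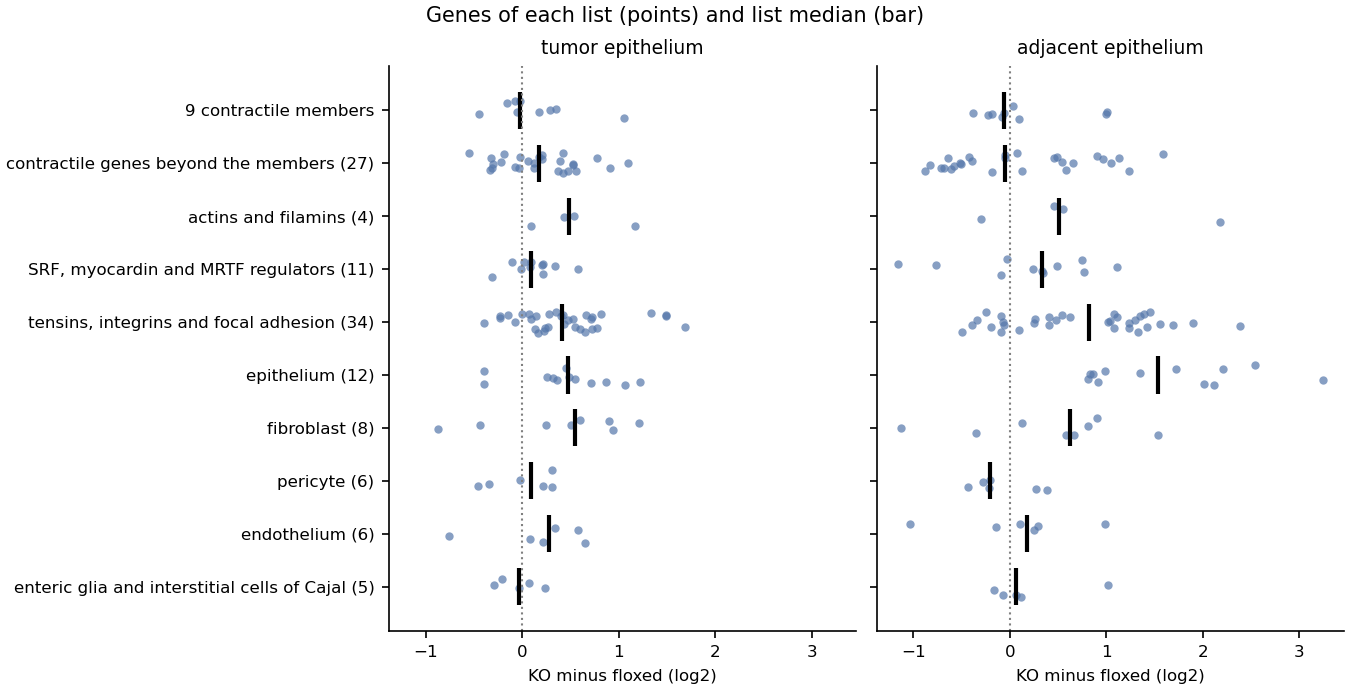
KO minus floxed (x axis, log2) for every measured gene of each list (points, rows labelled with the number of genes) in tumor (left) and adjacent epithelium (right), with a bar at the list median. The 9 contractile members have medians of -0.03 and -0.06, while epithelial markers have medians of 0.47 and 1.53.

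As a check of the labelled tissue, levels of different probe sets cannot be set against each other as amounts, so each was read against its array. The 108 values of the 9 contractile genes lay between 2.92 and 6.15 (log2), where array medians over all probe sets were 4.25 to 4.44 and upper quartiles 4.98 to 5.27. The median over the epithelial markers lay over the array's own upper quartile on each of the 12 arrays, most narrowly on floxed adjacent array 2, at 5.09 against 5.02. The range of Acta2 over the 12 arrays, 1.46, was near the median range of all genes, 1.50, and that of the Tns1 probe set was 4.80.

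The 5 genes whose pattern was most like the Tns1 probe set over the 12 arrays were Mir483, Plin5, Mirlet7a-1, Pacrgl and Mir3107, with Pearson r from 0.961 to 0.981. Over the 8 arrays not of weak signal their r was 0.957 to 0.997. Mir483 read 9.45, 9.22 and 8.96 in KO tumor arrays, against 6.89, 7.40 and 6.19 in floxed tumor arrays, with no overlap. It read 6.44 on conflict array 1 and 9.43 on conflict array 2. Mir483 was picked for its likeness to a probe set chosen for separating the genotypes, so its lack of overlap follows from that choice. Of all genes, 13.2% lay higher in KO tumor arrays without overlap. Of the 9 contractile genes, Flna and Tagln came nearest, at 0.622 and 0.443, above 90.4% and 79.2% of genes, and Myh11 was farthest at -0.63. These correlations are descriptions, since all genes share the arrays' scaling and signal.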

How the data were processed

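RNA from laser-cut epithelium was labelled with biotin after a GeneChip WT Pico kit and measured on 12 arrays of 1 colour, per the labels' protocols. The deposited values are log2 expression, 1 column per array. RMA, a multi-array summary method, and Partek are named in the submitters' processing notes without versions, and no other step by the authors is stated there. The SD of the values within an array ran from 1.04 to 1.57, so the deposited columns do not share 1 distribution.

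Of 35556 probe sets, 21789 had 1 gene symbol, 1621 several and 12146 none. Entrez identifiers of 21698 matched the RefSeq table, and 0 symbols changed. The probe set of highest mean per gene gave 19938 genes. The 10 arrays with agreeing labels entered 1 fit of 4 groups (lmFit and eBayes of limma 3.58.1, R 4.3.3), two-sided, with Benjamini-Hochberg adjustment over all genes and a call at an adjusted p under 0.05. The number of arrays limits the precision. The genes and lists were chosen with earlier results of these data known. No column of other samples was present (0). Named genes are the 10, the 5 most like Tns1 by Pearson r, and up to 4 per list by smallest p in tumor epithelium, with called genes outside this rule marked.

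Same-numbered KO and floxed tumor arrays deviated together across genes (r = 0.105, 0.121 and 0.347). The rule used then treats the title numbers as pairing the arrays, although floxed tumor array 2 correlated best with KO tumor array 1 (0.246). For adjacent arrays r was 0.00986 with the same number and -0.00986 otherwise, mirror values with 2 arrays a group. They give no ground for pairing there. The fit reported did not use the numbers, while the replicate block, an alternative, used them in both tissues. The fit was tested on simulated data. Alternatives were other scaling, a filter leaving out the dimmest 30% of genes, other handling of probe sets, variance models and array weights, the compared arrays alone, each array left out, weak-signal arrays (median r under 0.7) left out, both readings of the conflicting labels, the replicate block and an adjusted p under 0.10.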

Additional observations from a re-analysis of the deposited data

How the results depend on the processing

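Across 23 settings, 179 of 192 recomputed counts and medians kept the value reported or stayed within the spread between replicates. Many of the medians could not change, so this tally overstates how far they were tried. Leaving out or relabelling arrays outside a comparison does not move its differences, nor do the variance models. Averaging probe sets does not either, since each of the 9 genes has 1. With the replicate number as a block, 0 of the 9 contractile genes passed in tumor and 0 in adjacent epithelium, so it changed no call of these genes. The block called 673 and 2158 of all genes, against 215 and 1209 without it. It cannot move the medians of -0.03 and -0.06, since both genotypes hold the same numbers. The count was 1 in tumor epithelium with array weights (Tagln), and 1 in adjacent epithelium with array weights, with only the arrays compared and at an adjusted p under 0.10 (Flna). Leaving out 1 array at a time gave 0 to 1 in both genotype comparisons, and medians of -0.08 to 0.14 in tumor and -0.09 to 0.10 in adjacent epithelium. For tumor against adjacent epithelium they were -0.01 to 0.08 in KO and -0.30 to 0.10 in floxed, with counts of 0 to 0 there and for the interaction. A lone array left in a group was assumed to vary like the other groups. The median in tumor epithelium was 0.18 without the weak-signal arrays. With the conflicting labels read by title it was 0.24 for KO against floxed in adjacent epithelium and -0.25 for tumor against adjacent epithelium in KO, and read by genotype characteristic it was -0.27 for tumor against adjacent epithelium in floxed. The cause of these shifts was not tested. Of 792 differences of the 9 genes under the alternatives, 55 had the other sign, none of them past the test, and 8 passed, all of Tagln or Flna. The Tns1 probe set differed by 3.31 in tumor and 2.26 in adjacent epithelium after quantile normalizing again. No fit without weak-signal arrays exists for adjacent epithelium, for tissues in floxed or for the interaction, since no floxed adjacent array is left. With 2 or 3 arrays a group, the width of the intervals limits what could be detected.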
